A study of Mus musculus with 18 samples.

Results

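The RNAs of 10 genes that granulocytes make in abundance were followed in the ovaries of female mouse offspring: S100a8, S100a9, Ltf, Ngp, Camp, Stfa1, Stfa2, Retnlg, Elane and Mpo. Granulocytes are short-lived white blood cells, of which neutrophils are the most common. The genes were picked by symbol, and all 10 were found among the 30172 genes of the tables. The ovaries came from wild type C57BL/6J females (F1) whose mothers had eaten either normal chow (F1-Control) or chow with 3% methionine (F1-HHcy), a diet used to raise homocysteine in the blood and given, per the labels, from 4 weeks before mating and kept up, per the methods of the study, until weaning. The methods give another timing for the start of the diet than the labels do. The pups themselves received no treatment. Whole ovaries were collected at postnatal day 3 (Pd3), 7 (Pd7) and 21 (Pd21), which gave 6 groups of 3 libraries and 18 libraries in all. Per the labels the 12 libraries of the earlier ages form batch 1 and the 6 of Pd21 batch 2. The labels do not say how many pups or litters stand behind a library, so the spread between libraries may be partly technical, and errors and tests cover only that spread. The 10 genes were chosen with results of these libraries already known. Their values are therefore a description. No p-value is printed for them, and nothing is read from the counts of genes that passed a threshold.

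Neutrophils mature in blood-forming tissue and make their granule proteins in order. The azurophil granule enzymes come first, at the promyelocyte stage, the specific granule proteins follow at the myelocyte stage, and receptors and cytosolic proteins are made late. Because the RNA of the early proteins fades as the cell matures, these genes also mark the stage of the cell. Some of them are not exclusive to the lineage, since lactoferrin and the calprotectin subunits are also made by epithelia.

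In the mouse genome (GRCm38, GENCODE M21) all 10 are protein-coding genes, and several lie near each other. S100a8 (chromosome 3, 90668978 to 90670035, plus strand) and S100a9 (chromosome 3, 90692632 to 90695721, minus strand) lie 22.6 kb apart and encode the subunits of calprotectin, a calcium-binding protein of the neutrophil cytosol. Camp (chromosome 9, 109847379 to 109849617, minus strand) and Ngp (chromosome 9, 110419747 to 110423012, plus strand) encode the cathelicidin peptide and the related neutrophilic granule protein, and Ltf (chromosome 9, 111019271 to 111042767, plus strand) encodes lactoferrin, an iron-binding protein. All 3 are specific granule proteins. Stfa1 (chromosome 16, 36276951 to 36285373, plus strand) and Stfa2 (chromosome 16, 36403992 to 36408457, minus strand) encode stefins A, inhibitors of cysteine cathepsins, and Retnlg (chromosome 16, 48872621 to 48874496, plus strand) encodes a resistin-like secreted protein. Elane (chromosome 10, 79886247 to 79888215, plus strand) and Mpo (chromosome 11, 87793581 to 87804413, plus strand) encode neutrophil elastase and myeloperoxidase, the main azurophil granule enzymes.

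The region just before the start of each gene was searched for the letters that C/EBP factors and PU.1, the main regulators of granulocyte genes, are known to recognise. RefSeq promoters of 300 bases (GRCm38.p6, 250 before and 50 after the start) were found for all 10 genes. The C/EBP letters TTGCNNAA, read on either strand, were present in 5 of the 10, against 10.8% of the 27025 promoters in the table. The PU.1 core GAGGAA, likewise on either strand, was present in 6 of the 10, against 28.3% of the same promoters. The stretches of 30 bases that hold a C/EBP match are shown first, with the match in capitals.
S100a9 (chr3:90695939-90695968, minus strand): ggtaggctgtcTTGCTTAAgatttgggcgg
Ltf (chr9:111019206-111019235, plus strand): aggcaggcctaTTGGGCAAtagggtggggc
Ngp, distal (chr9:110419659-110419688, plus strand): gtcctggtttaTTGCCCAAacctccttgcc
Ngp, proximal (chr9:110419778-110419807, plus strand): tttatgtcaccggcagttcTTGGGCAAggc
Stfa1 (chr16:36277028-36277057, plus strand): tgcagtaagacTTGCCTAAggccacactca
Retnlg (chr16:48872358-48872387, plus strand): agctTTCTGCAAggcattccaggcacctcc
The PU.1 core closest to the start of S100a8, and that of Elane, are shown in the same way.
S100a8 (chr3:90669023-90669052, plus strand): gctggccaagctTTCCTCtataaaagcagc
Elane (chr10:79886215-79886244, plus strand): tcgtgtcccaggGAGGAAgtagggctgtgg
Starts are those of RefSeq and differ from the GENCODE starts for S100a8 and Stfa1, among others. The sites in the shown stretches of Ltf, Retnlg and S100a8 and the proximal site of Ngp are written on the strand of the gene and match the motif on the opposite strand. Camp held neither set of letters in this window. A match of letters is a description of the sequence and says nothing about binding in these ovaries.

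The files gave a value per gene in FPKM, fragments scaled to the length of the gene and the size of the library, a level that can be compared between genes. The values resolved into whole fragments, with 33630641 to 39399281 fragments per library. For S100a8, the shortest of the 10 genes, 1 fragment was worth at most 0.0759 FPKM, and for Ltf, the longest, at most 0.0108 FPKM. A level of 0 in 1 library allows, by counting error alone, up to the level of 3 fragments, at most 0.213 FPKM for Stfa1 and 0.0970 FPKM for Elane. Sequence shared between relatives bears on the stefins. Of the windows of 50 bases in the longest Stfa1 transcript, 23.1% occur unchanged in Cstdc5 and 11.3% in Cstdc6, and of those in Stfa2 14.7% occur in Stfa2l1, so part of the reads of these genes cannot be assigned with certainty. No window was shared between Stfa1 and Stfa2, and the other 8 genes shared none with each other or with the stefins. A gene counted as called in a comparison when its unadjusted p was under 0.05 and its log2 fold change above 0.58 in size (limma on log2(FPKM + 1), fitted over all genes that reached 1 FPKM in 3 or more of the libraries compared). Fold changes on this scale understate the change of low genes.

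At Pd3 the calprotectin subunits were among the highly expressed genes of the control ovaries and far lower in the F1-HHcy ovaries. S100a9 was at 537, 147 and 252 FPKM in F1-Control replicates 1, 2 and 3, and at 5.48, 6.12 and 76.3 FPKM in F1-HHcy replicates 1, 2 and 3. S100a8 was at 383, 90.5 and 159 FPKM in F1-Control and at 3.24, 2.49 and 42.0 FPKM in F1-HHcy. The groups did not overlap for either gene, and in both cases F1-HHcy replicate 3 lay between the other F1-HHcy libraries and the controls. The mean of S100a9 was 312 ± 202 FPKM (SD, n = 3) in F1-Control and 29.3 ± 40.7 FPKM (SD, n = 3) in F1-HHcy, 10.7-fold lower, and that of S100a8 was 13.2-fold lower. Among all genes by FPKM, S100a9 ranked 108, 364 and 173 in F1-Control replicates 1, 2 and 3 and 8601, 8323 and 762 in F1-HHcy replicates 1, 2 and 3. In RNA from whole tissue, fewer cells of a type and less RNA per cell cannot be told apart.

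The specific granule genes followed. Camp was at 81.8, 11.7 and 33.2 FPKM in F1-Control and at 0, 0.0466 and 7.02 FPKM in F1-HHcy. Ltf was at 21.4, 5.33 and 3.67 FPKM in F1-Control and at 0.0302, 0.0509 and 2.43 FPKM in F1-HHcy. Ngp was at 100.4, 27.2 and 19.43 FPKM in F1-Control and at 0.119, 0.0721 and 19.46 FPKM in F1-HHcy. Camp and Ltf were lower in every F1-HHcy library than in every control, whereas F1-HHcy replicate 3 brought Ngp just to the level of the lowest control. The mean was 17.9-fold lower for Camp, 12.1-fold lower for Ltf and 7.48-fold lower for Ngp.

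Of the stefins, Stfa1 was at 149, 54.8 and 61.9 FPKM in F1-Control and at 1.58, 0.133 and 7.77 FPKM in F1-HHcy, a mean 28.0-fold lower, the widest ratio among the 10 genes at this age. Stfa2 was at 46.0, 33.5 and 10.4 FPKM in F1-Control and at 0.326, 0.132 and 4.94 FPKM in F1-HHcy, 16.7-fold lower. Retnlg was at 9.25, 17.3 and 3.79 FPKM in F1-Control and at 0.227, 0 and 2.24 FPKM in F1-HHcy, 12.3-fold lower. None of these 3 genes overlapped between the groups, and in each F1-HHcy replicate 3 was again the highest of its group.

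The azurophil enzymes were low and uneven even in the control ovaries. Elane was at 2.04, 0.152 and 8.26 FPKM in F1-Control and at 0, 0 and 1.07 FPKM in F1-HHcy. Mpo was at 4.48, 0.0110 and 8.13 FPKM in F1-Control and at 0.0325, 0 and 0.980 FPKM in F1-HHcy. For both genes the second control library, with 5 fragments of Elane and 1 of Mpo, lay within the F1-HHcy range, so the groups overlapped. The ratio of the means was 9.75 for Elane and 12.5 for Mpo.

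**Figure D1:**
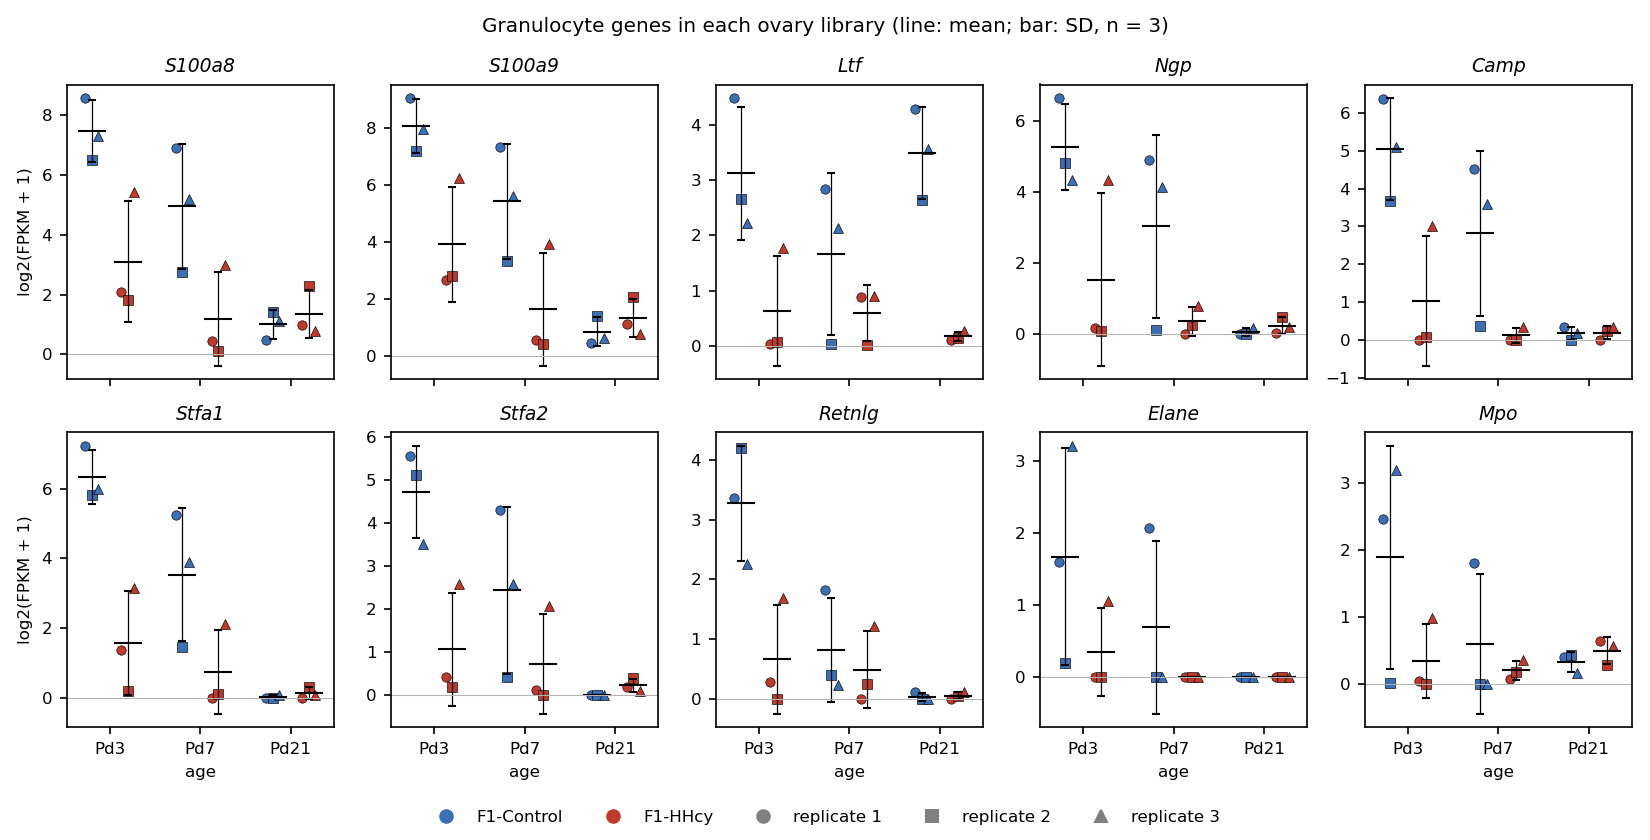
Each panel plots 1 gene as log2(FPKM + 1) in the 18 ovary libraries by age (x axis), F1-Control in blue and F1-HHcy in red; the marker shape gives the replicate number, the line the mean and the bar the SD of 3 libraries. At Pd3 every F1-HHcy point lies below every control for 7 of the 10 genes, at Pd7 this holds for Camp alone, and at Pd21 Ltf keeps a separation, with controls at 5.20 FPKM or more and F1-HHcy at 0.204 FPKM or less.

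On the log2(FPKM + 1) scale the difference at Pd3 ran from -4.77 ± 0.71 (SE) for Stfa1 and -4.37 ± 0.96 (SE) for S100a8 to -1.32 ± 0.69 (SE) for Elane. Mpo did not pass the level filter, and 9 of the 10 genes did. A gene that passed only through its control libraries had to differ, so no weight rests on the count of those called: 8 of the 9, all lower in F1-HHcy, with Elane not called. Over all 13277 genes tested, 4.74% were called lower. Of the 10 genes, 7 had every F1-HHcy library below every control, which held for 16.1% of all genes tested. Over all 10 genes, with no filter, the median difference was -3.71, and over all genes tested it was -0.03. When an adjusted p under 0.05 (limma, Benjamini-Hochberg over all genes tested) was asked for, the called genes were Stfa1 and Stfa2, beside 1.26% of all genes called lower by that rule.

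F1-HHcy replicate 3 stood apart in more than these genes. All 10 had their highest F1-HHcy value at Pd3 there, and the library had 3452 fragments of the 10 genes, against 195 and 163 in the other F1-HHcy libraries and 7653 to 26647 in the controls. Cxcl1, a chemokine that attracts neutrophils, was at 258 FPKM in it and at 2.80 to 8.71 FPKM in the other 5 libraries of that age. Without this library the difference widened, to -5.53 for S100a8 and -5.15 for Ngp, and without F1-Control replicate 1, the highest control, it was -3.82 for S100a8 and -3.05 for Ngp. In the 6 fits that leave out 1 library each, 8 or 9 of the members were called. The Elane call was the one that changed, being made in the fit without F1-HHcy replicate 3 (-1.67) and in the fit that left out F1-Control replicate 2 (-2.06), while it was -0.55 with F1-Control replicate 3 left out.

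Within the control ovaries of Pd3 the 10 genes did not keep fixed proportions. F1-Control replicate 1 had the highest level over all 18 libraries of 7 genes (S100a8, S100a9, Ltf, Ngp, Camp, Stfa1 and Stfa2), replicate 2 that of Retnlg, and replicate 3 those of Elane and Mpo. As a share of the S100a8 level, S100a9 stayed between 140.4% and 162% in these 3 libraries. Elane was at 0.532%, 0.167% and 5.19% of S100a8 in replicates 1, 2 and 3. Retnlg ran the other way, at 2.42%, 19.1% and 2.38%. The early azurophil enzymes were thus highest relative to calprotectin in replicate 3 and the late Retnlg in replicate 2, over genes and libraries that all carry the same label. Over the 12 libraries with at least 20 fragments of both genes, the ratio of S100a9 to S100a8 had a median of 1.58 and ranged from 0.851 to 2.46.

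**Figure D2:**
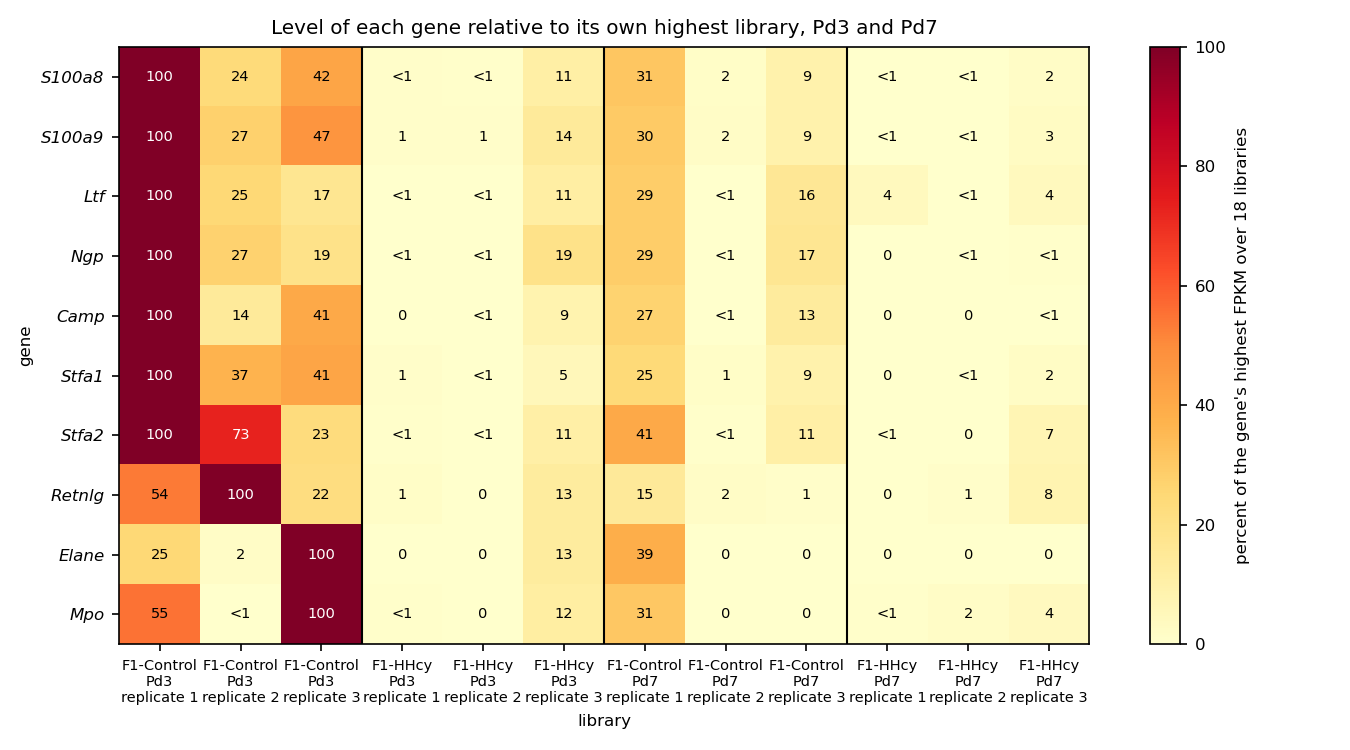
The map gives each gene's FPKM as a percent of its highest value over the 18 libraries (color and number, 0 to 100) for the 6 libraries of Pd3 and the 6 of Pd7. Most genes peak in F1-Control Pd3 replicate 1, Retnlg in replicate 2 (1 of 10 genes), and Elane and Mpo in replicate 3 (2 of 10 genes).

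Other genes of the granulocyte program moved in part with these. Lists of 57 further genes, 54 of them found in the files (granule contents, stefins, surface receptors and transcription factors), had 23 genes above the level filter at Pd3, of which 9 were called lower and 1 higher, beside 4.74% and 5% of all genes. The lists were drawn up with earlier results known. The stefin relatives Stfa3, Stfa2l1, Cstdc4 and Csta2 were all called lower, 4 of the 4 that passed. At least Stfa3, Stfa2l1 and Cstdc4 passed through their control libraries, so no weight rests on this count. The 9 genes called lower include them, so no weight rests on that count either. Stfa2l1 was at 60.6, 30.7 and 17.3 FPKM in F1-Control and at 0.400, 0.472 and 7.01 FPKM in F1-HHcy (-3.70 ± 0.71, SE). Of 7 specific and gelatinase granule genes that passed, 3 were called lower: Lcn2, the siderophore-binding lipocalin (-2.18 ± 0.53, SE), Pglyrp1, a peptidoglycan recognition protein (-2.02 ± 0.49, SE), and Hp, haptoglobin (-0.77 ± 0.31, SE). Of 4 azurophil and promyelocyte genes that passed, Prtn3, proteinase 3, was called lower (-1.42 ± 0.52, SE). The calls of Hp and Prtn3 were each lost in 4 of the 6 fits that leave out 1 library.

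Transcription factors of the lineage gave no common direction at Pd3. Of 6 that passed, Runx1 was called lower and Cebpa higher, a call lost in 3 of the 6 fits that leave out 1 library. Cebpa was at 1.17, 1.80 and 1.25 FPKM in F1-Control and 4.18, 2.36 and 2.19 FPKM in F1-HHcy. The defining receptors of mature neutrophils were too low to be tested. Cxcr2, the receptor for Cxcl1, lay between 0.201 and 0.291 FPKM in F1-Control and between 0.0177 and 0.102 FPKM in F1-HHcy. Csf3r, the receptor for the granulocyte growth factor, lay between 0.338 and 0.403 FPKM and between 0.179 and 0.338 FPKM, and the surface marker Ly6g between 0.122 and 0.668 FPKM and between 0 and 0.147 FPKM. Of the 18 surface and signal genes, 2 passed the filter and 0 were called, with 0 also at the adjusted p under 0.05. Among genes of the oxidase that neutrophils use to make superoxide, Rac2 and Ncf1 were called lower, 2 of the 4 that passed, beside 4.74% of all genes.

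Markers of red cell precursors were lower in F1-HHcy like the 10 genes, but did not follow them library by library. The erythroid genes other than globins summed to 507 FPKM in F1-Control Pd3 replicate 2 and 216 FPKM in replicate 3. The 10 genes summed to 388 and 560 FPKM in these libraries. At Pd3 all 10 erythroid markers passed the filter and all 10 were called lower, beside 4.74% of all genes tested. Some, such as Slc4a1, passed through their control libraries, so no weight rests on this count. The summed level of the markers was 4061 to 11954 FPKM in F1-Control and 802.5 to 1112 FPKM in F1-HHcy. Slc4a1, the anion exchanger of the red cell membrane, was at 73.9, 55.2 and 26.6 FPKM in F1-Control and at 0.121, 0.135 and 3.77 FPKM in F1-HHcy, and Car1 was at 0 in 1 F1-HHcy library. Macrophage markers did not move this way: of 10 that passed, 0 were called lower, with summed levels of 78.9 to 125 FPKM in F1-Control and 89.7 to 115 FPKM in F1-HHcy. Lymphocyte markers, low throughout, summed to 3.83 to 5.43 FPKM in F1-Control and to less, 2.20 to 3.62 FPKM, in F1-HHcy. Summed platelet markers overlapped, at 5.81 to 10.8 FPKM and 5.81 to 8.70 FPKM. Of 9 ovarian cell markers that passed, 4 were called higher (Amh, Gdf9, Inha and Zp3), beside 5% of all genes tested. Their summed levels were 391 to 501 FPKM in F1-Control and 698 to 1087 FPKM in F1-HHcy. None of the 10 eosinophil markers passed, and of 5 mast cell and basophil markers 0 were called. The part of red cells and of ovarian stage in the difference was not tested.

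**Figure D3:**
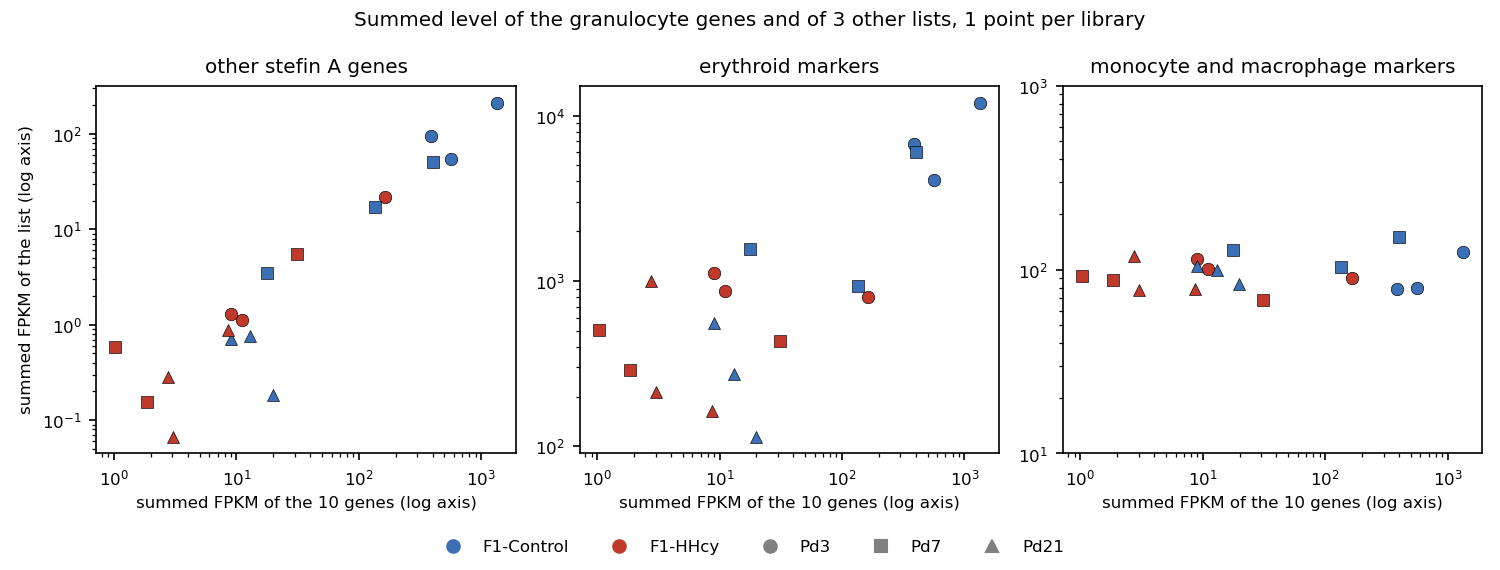
Each point is 1 of the 18 libraries, with the summed FPKM of the 10 granulocyte genes on the x axis and that of another list on the y axis (both log axes), blue for F1-Control, red for F1-HHcy and the marker shape for age. The other stefin A genes (54.3 to 212 FPKM in F1-Control at Pd3, 1.13 to 21.6 FPKM in F1-HHcy at Pd3) are high where the 10 genes are high, the erythroid markers are highest in the libraries on the right, and the macrophage markers stay between 68.6 and 150.1 FPKM.

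At Pd7 the mean of each of the 10 genes was lower than at Pd3 in both groups, although in F1-HHcy the medians of Ltf, Ngp and Mpo were higher. S100a8 was at 119, 5.77 and 35.5 FPKM in F1-Control and at 0.374, 0.0759 and 6.95 FPKM in F1-HHcy. S100a9 was at 161, 9.12 and 49.0 FPKM in F1-Control and at 0.503, 0.340 and 14.3 FPKM in F1-HHcy. For both genes F1-Control replicate 2 lay below F1-HHcy replicate 3, so the groups overlapped, although the means were 21.6-fold and 14.4-fold lower. Camp alone had every F1-HHcy library, at 0, 0 and 0.270 FPKM, below every control, at 22.0, 0.283 and 11 FPKM. Its ratio of means, 123, rests on 6 fragments in F1-HHcy, and 19.5% of all genes tested at this age had the same separation.

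Most of the other genes had the same form, with F1-Control replicates 1 and 3 high and replicate 2 low. Ngp was at 29.0, 0.0731 and 16.6 FPKM in F1-Control and at 0, 0.205 and 0.744 FPKM in F1-HHcy. Stfa1 was at 36.7, 1.76 and 13.9 FPKM in F1-Control and at 0, 0.0711 and 3.36 FPKM in F1-HHcy. Ltf was at 6.18, 0.0206 and 3.37 FPKM in F1-Control and at 0.845, 0.0108 and 0.866 FPKM in F1-HHcy. All 3 overlapped through F1-Control replicate 2. Stfa2 was at 18.7, 0.334 and 4.98 FPKM in F1-Control and at 0.0693, 0 and 3.19 FPKM in F1-HHcy. Retnlg had dropped to 2.53, 0.326 and 0.180 FPKM in F1-Control, against 0, 0.196 and 1.33 FPKM in F1-HHcy, and its groups overlapped. Elane was at 3.20 FPKM in F1-Control replicate 1 and had no fragment in the other 5 libraries of Pd7. Mpo was at 2.49, 0 and 0 FPKM in F1-Control and at 0.0576, 0.128 and 0.286 FPKM in F1-HHcy, so that all F1-HHcy libraries lay above F1-Control replicates 2 and 3 and below replicate 1.

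Of the 10 genes, 4 passed the filter at Pd7, and 3 of them (S100a8, S100a9 and Stfa1) were called lower, beside 7.35% of the 13299 genes tested. The differences on the log2(FPKM + 1) scale were -3.77 ± 0.97 (SE) for S100a8, -3.79 ± 1.05 (SE) for S100a9, -2.79 ± 0.84 (SE) for Stfa1 and -1.71 ± 0.85 (SE) for Stfa2. Over all 10 genes without the filter the median was -2.20, and over all genes tested it was 0 to 2 decimals. Without F1-Control replicate 2 the difference of S100a8 was -4.86 and that of Stfa2, then called, -2.72, and without F1-Control replicate 1 they were -2.79 and -0.78. F1-HHcy replicate 3 was the highest of its group for 9 of the 10 genes, as it was for all 10 at Pd3, although replicate numbers do not link libraries across ages.

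Of the 54 other granulocyte genes 16 passed at Pd7, with 3 called lower (Cstdc4, Stfa2l1 and Pglyrp1) and 4 higher (Adam8, Ifitm6, Cebpa and Cbfa2t3), beside 7.35% and 9.06% of all genes. Lcn2, lower at Pd3, was at 9.13, 1.13 and 9.42 FPKM in F1-Control and at 2.20, 2.61 and 7.59 FPKM in F1-HHcy, with overlapping groups. Erythroid markers again moved the same way: 6 of the 6 that passed were called lower, with summed levels of 928 to 5994 FPKM in F1-Control and 288 to 504 FPKM in F1-HHcy. Of 10 macrophage markers that passed, 3 were also called lower, as were 4 of 5 mast cell markers (the other, Hdc, was called higher), with summed levels of 104 to 150.1 FPKM against 68.6 to 92.7 FPKM for the first list and 40.5 to 63.3 FPKM against 14.6 to 43.6 FPKM for the second. Of 6 oviduct epithelium markers that passed, 3 were called lower (Epcam, Krt7 and Pax8) and 1 higher (Ovgp1, a call lost in 4 of the 6 fits that leave out 1 library), with summed levels of 80.7 to 135 FPKM in F1-Control and 34.1 to 51.8 FPKM in F1-HHcy. The part of these lists in the result was not tested.

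**Figure D4:**
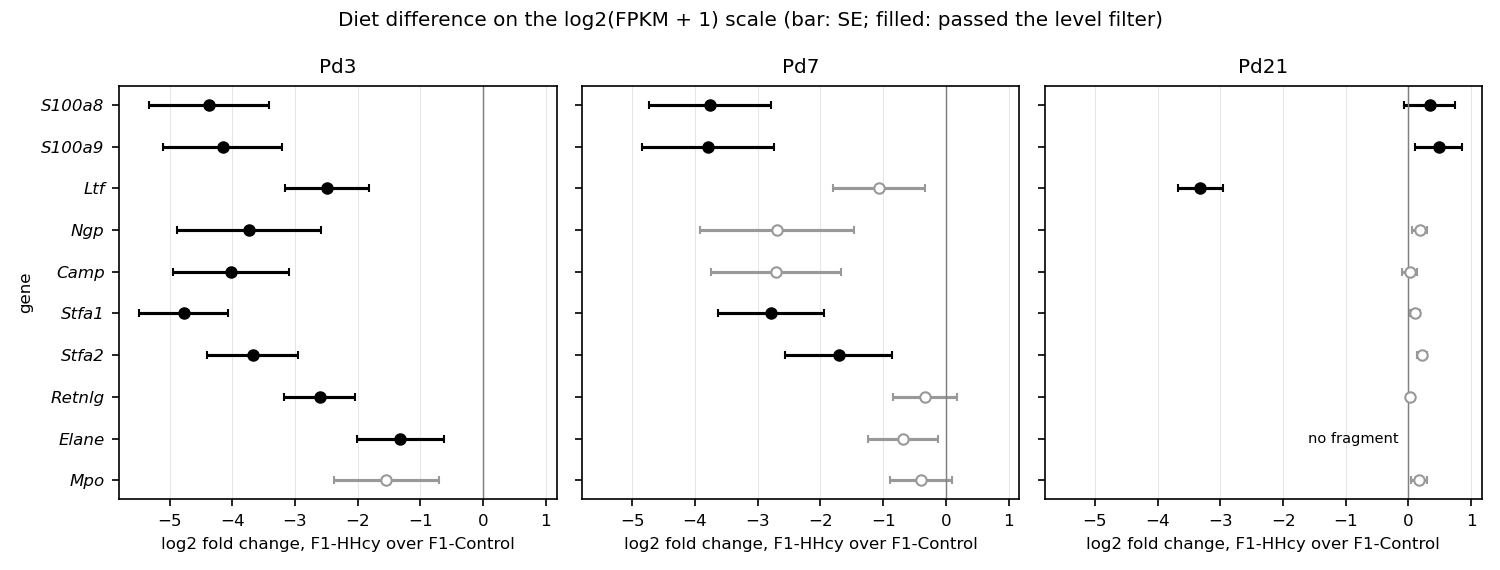
Points give the log2 fold change of F1-HHcy over F1-Control for each gene on the log2(FPKM + 1) scale at Pd3, Pd7 and Pd21, with bars for the SE; filled points passed the level filter of the fit and open points come from the fit without it. At Pd3 all 10 points are below 0, from -4.77 to -1.32, and at Pd21 only Ltf is (-3.32).

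At Pd21 the 10 genes no longer moved together. S100a8 was at 0.393, 1.68 and 1.17 FPKM in F1-Control and at 0.990, 3.84 and 0.712 FPKM in F1-HHcy. S100a9 was at 0.392, 1.71 and 0.586 FPKM in F1-Control and at 1.22, 3.27 and 0.727 FPKM in F1-HHcy. Both overlapped between the groups, with differences of 0.34 ± 0.41 (SE) and 0.48 ± 0.37 (SE). Ngp, Camp, Stfa1, Stfa2, Retnlg and Mpo stayed under 1 FPKM in all 6 libraries, and Elane had no fragment in any. Stfa2 had 8 fragments over the 3 F1-HHcy libraries and 0 over the 3 control libraries, which sets every F1-HHcy library above every control, as for 1.92% of all genes tested at this age.

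Ltf was the exception. It was at 18.4, 5.20 and 10.8 FPKM in F1-Control and at 0.0809, 0.104 and 0.204 FPKM in F1-HHcy. The groups lay far apart, with means of 11.5 ± 6.64 FPKM (SD, n = 3) and 0.130 ± 0.0652 FPKM (SD, n = 3), 88.6-fold lower in F1-HHcy (-3.32 ± 0.36, SE, on the log2 scale). At this age 3 of the 10 genes passed the filter and 1, Ltf, was called lower, beside 5.06% of the 13350 genes tested. All controls lay above all F1-HHcy libraries for 8.61% of those genes. Ltf was called in each of the 6 fits that leave out 1 library. It passed the filter through its control libraries alone, however, so, as at Pd3, no weight rests on these calls. In the control ovaries the level of Ltf at Pd21 was close to that of Pd3, while the sum of the other 9 genes was 1.45 to 3.74 FPKM in the controls of Pd21 and 382 to 1314 FPKM in those of Pd3.

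Among the other granulocyte genes, 3 genes of granules moved with Ltf at Pd21. Of 16 further granulocyte genes that passed, 4 were called lower and 0 higher, beside 5.06% and 0.0824% of all genes. Lcn2 was at 28.9, 10.1 and 31.5 FPKM in F1-Control and at 1.95, 2.07 and 4.25 FPKM in F1-HHcy (-2.61 ± 0.41, SE). Hp was at 61.1, 20.6 and 31.3 FPKM in F1-Control and at 2.60, 1.66 and 3.96 FPKM in F1-HHcy (-3.28 ± 0.38, SE). Adam8, a membrane protease, was at 16.3, 6.72 and 10.4 FPKM in F1-Control and at 1.87, 0.421 and 0.582 FPKM in F1-HHcy (-2.63 ± 0.35, SE). None of these overlapped between the groups, and the second control was the lowest control for each, as for Ltf. The transcription factor Cebpd was the other gene called lower (-0.72 ± 0.21, SE).

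Markers of oviduct epithelium moved with Ltf. Of 8 in the list, 7 passed at Pd21 and all 7 were called lower, beside 5.06% of all genes tested. Some, such as Foxj1, passed through their control libraries alone, so no weight rests on this count. Summed levels were 137 to 568 FPKM in F1-Control and 22.9 to 50.4 FPKM in F1-HHcy. Ovgp1, the oviduct glycoprotein, was at 216, 37.5 and 365 FPKM in F1-Control and at 2.10, 0.370 and 1.12 FPKM in F1-HHcy, and Foxj1, a factor of ciliated cells, at 99.1, 20.4 and 49.7 FPKM and 0.371, 0.441 and 0.248 FPKM. At Pd3 the same list had 7 members that passed and 0 called, also at the adjusted p under 0.05, with summed levels of 121 to 149 FPKM and 64.4 to 120 FPKM, and at Pd7 3 of 6 were called lower. Erythroid markers had 6 members that passed at Pd21 and 0 called. Mast cell markers had 4 of 5 called lower, with summed levels of 34.0 to 110.1 FPKM and 8.35 to 17.3 FPKM. The part of oviduct tissue in the Ltf difference was not tested.

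**Figure D5:**
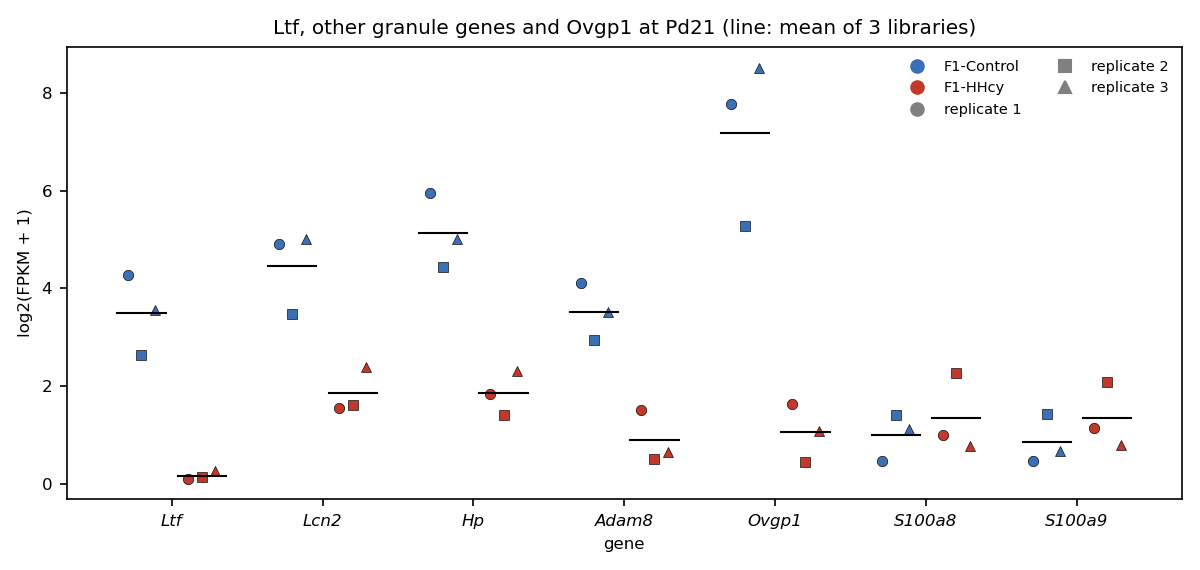
Points give log2(FPKM + 1) in the 6 libraries of Pd21 for Ltf, 3 other granule genes (Lcn2, Hp and Adam8), the oviduct glycoprotein gene Ovgp1 and the calprotectin genes; blue is F1-Control, red F1-HHcy, the marker shape the replicate and the line the mean of 3 libraries. The first 5 genes separate the groups, with Ltf at 5.20 FPKM or more against 0.204 FPKM or less, and S100a8 and S100a9 do not.

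From Pd3 to Pd7, both in batch 1, the means of the 10 genes were lower at the later age in the control ovaries. The mean of S100a9 went from 312 to 72.9 FPKM, that of Camp from 42.3 to 11.1 FPKM and that of Retnlg from 10.1 to 1.01 FPKM. All 10 passed the filter in F1-Control, and 5 were called lower at Pd7 (S100a8, S100a9, Stfa1, Stfa2 and Retnlg), beside 7.77% of all genes. Retnlg had the smallest error, at -2.45 ± 0.52 (SE). The erythroid markers were called lower in all 10 cases over the same interval. In F1-HHcy 3 genes passed and 0 were called by limma, with 0 at an unadjusted p under 0.05 and 0 in the fit to recovered fragments (limma-voom), beside 5.36% of all genes called lower.

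Ordered by mean level over the 6 groups, 8 of the 10 genes (S100a8, S100a9, Ngp, Camp, Stfa1, Stfa2, Retnlg and Elane) had the same first 3 places: F1-Control Pd3, then F1-Control Pd7, then F1-HHcy Pd3. Neighbours over the 6 places overlapped in their ranges except F1-Control Pd3 and F1-Control Pd7 for Stfa1 and Retnlg and, at the low end, F1-HHcy Pd21 and F1-Control Pd21 for Stfa2. Mpo had F1-Control Pd3 and F1-Control Pd7 first and then F1-HHcy Pd21 at 0.423 ± 0.185 FPKM (SD, n = 3). Ltf was the gene whose order began with F1-Control Pd21, at 11.5 FPKM, followed by F1-Control Pd3 at 10.1 ± 9.81 FPKM (SD, n = 3), with overlapping ranges. Comparisons with Pd21 set a later age in another batch beside the earlier ones, and age and batch cannot be told apart.

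The diet difference itself was compared between ages in 1 model of the 18 libraries, in which all 10 genes passed. Between Pd3 and Pd7, 1 of the 10, Retnlg, was called as different, beside 4.75% of all genes called in that direction. Its difference was smaller in size at Pd7 by 2.28 ± 0.70 (SE) on the log2 scale. At 2.53, 0.326 and 0.180 FPKM in the Pd7 controls, Retnlg was too low there for a difference as large as at Pd3. Much of this change was thus set by its level. For S100a8 the change between these ages was 0.60 ± 1.44 (SE), too wide to tell. Between Pd3 and Pd21, 7 of the 10 were called, all towards 0, beside 4.00% of all genes, with 4.71 ± 1.44 (SE) for S100a8 and 4.88 ± 1.14 (SE) for Stfa1, while the change was -0.82 ± 0.95 (SE) for Ltf. At Pd21 Ngp, Camp, Stfa1, Stfa2 and Retnlg had 0 to 18 fragments per library and passed the filter only through the earlier ages. On the log2(FPKM + 1) scale their difference at Pd21 could only be near 0, so their move towards 0 was set by the levels and is no result about the diet. In the Pd21 controls S100a8 was at 0.393, 1.68 and 1.17 FPKM and S100a9 at 0.392, 1.71 and 0.586 FPKM. Both were too low there for a difference as large as at Pd3 or Pd7. Much of their move towards 0 was likewise set by their levels. Between Pd7 and Pd21, 5 were called: S100a8, S100a9, Stfa1 and Camp towards 0, and Ltf away from it, by -2.25 ± 0.95 (SE), beside 5.55% and 9.72% of all genes in these directions. When fitted to recovered fragments instead (limma-voom), the members called numbered 0 between Pd3 and Pd7, 1 between Pd3 and Pd21 and 0 between Pd7 and Pd21.

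Outside the 10, the genes with the most similar pattern were found by Pearson's r with their mean on the log2(FPKM + 1) scale, as deviations from the mean of each age, over the 18 libraries and 14597 genes. The r is a description, since the libraries share the diet difference. The first 4 places were held by stefin relatives: Cstdc5 and Cstdc4 (0.99 each), Stfa2l1 (0.98) and Stfa3 (0.97). Cstdc5, which shares sequence with Stfa1, was at 161, 53.5 and 54.6 FPKM in F1-Control Pd3 and at 0.938, 0.949 and 22.9 FPKM in F1-HHcy Pd3. Add2, Pglyrp1, Slc4a1, Ctse and Mbnl3 were among the next, with r from 0.90 to 0.92. Of these, Slc4a1 is an erythroid marker of the list above, and Pglyrp1 is a granule gene.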

How the data were processed

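Whole ovary RNA of the 18 libraries was sequenced after poly-A selection with a stranded kit, per the labels. The submitters' processing notes list FastQC 0.11.9, Trimmomatic 0.39, STAR 2.7.9a, featureCounts 2.0.1 and DESeq2 1.36.0 and the build GRCm38. The authors deposited FPKM values, 1 table per library with 30172 gene symbols. How reads of near-identical genes were assigned is not given in the sources used here. Whole fragments could be recovered from the FPKM values of 27293 of 27294 genes above 0 in at least 3 libraries (tolerance 0.01 fragments), which gave the depth per library.

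Each table was joined by symbol, 1 was added to the FPKM as pseudocount and the log2 values were fitted with limma 3.58.1 in R 4.3.3, in separate models for the 6 libraries of each age and in 1 model of all 18 for differences between ages. A gene was tested where 3 or more of the libraries fitted reached 1 FPKM. A call asked for a log2 fold change of more than 0.58 in size and a p, before adjustment, below 0.05. Summaries used pandas 2.3.3 and numpy 2.4.6 under Python 3.11.15, plots used matplotlib 3.10.9, and the fits were tested on simulated data. The members, the gene lists and the comparisons were chosen with earlier results of these data known. Beside the members, the rule for naming took from each list the 3 genes of highest mean level and the 2 with the smallest p at each age, and the 10 genes whose log2 values correlated best with the mean of the members. Other genes, such as the neutrophil receptors and Car1, were chosen after their values were seen. Alternatives were a pseudocount of 0.1, no filter, 1 model of all libraries, a replicate block, limma-voom on recovered fragments, an adjusted p and each library left out. Median-ratio scaling was added after seeing the data. List symbols found under no name in the tables were not analysed here. Some genes of the lists are not reported here by name.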

Additional observations from a re-analysis of the deposited data

Results flagged for a closer look

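Genes of the granulocyte lists, members included, are given here where the diet difference itself differed between ages, by a term for that difference in the model of the 18 libraries and an adjusted p under 0.05 (limma, over all genes tested). From Pd3 to Pd21 the difference in log2(FPKM + 1) moved up by 4.88 ± 1.14 (SE) for Stfa1 and by 2.63 ± 0.70 (SE) for Retnlg. It moved up by 3.70 ± 1.00 (SE) for Stfa2l1 and by 3.63 ± 0.94 (SE) for Stfa3. These 4 genes had 0 to 4 fragments per library at Pd21 and passed the filter only through the earlier ages, so on this scale their difference at Pd21 could only be near 0 and the direction of the change was fixed by their levels. Over the same ages the difference moved down, by -2.75 ± 0.40 (SE) for Adam8, -2.51 ± 0.57 (SE) for Hp, -1.37 ± 0.38 (SE) for Cebpd and -0.98 ± 0.24 (SE) for Cebpb. From Pd7 to Pd21 it moved by -3.41 ± 0.40 (SE) for Adam8 and by -3.67 ± 0.57 (SE) for Hp. Pd21 is also the other batch, so age and batch cannot be told apart.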

How the results depend on the processing

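The number of members called at Pd3 was 8 and, under an adjusted p, 2. At Pd7 it was 3, and 5 with all 18 libraries in 1 model. For the other granulocyte genes the adjusted p left 3 of 10 called at Pd3 and 4 of 7 at Pd7. The median difference of the members tested was -3.74 at Pd3 and -3.28 at Pd7, and limma-voom on recovered fragments gave -5.27 and -5.09. At Pd21 it was 0.34, and 0.55 with a pseudocount of 0.1, 0.17 with no filter, 0.14 with all 18 libraries in 1 model and 0.58 with limma-voom. From Pd3 to Pd7, 5 members were called in F1-Control, against 3 with no filter and 8 with all 18 libraries in 1 model, and in F1-HHcy that model called 1 where 0 were called in the report. Differences between ages called 1, 7 and 5 members, and limma-voom called 0, 1 and 0; the cause was not tested.

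With 1 library left out at a time, the median ran from -5.01 to -3.24 at Pd3, from -4.33 to -2.37 at Pd7 and, changing sign, from -0.12 to 0.63 at Pd21. Members called ran from 8 to 9 at Pd3 and from 3 to 4 at Pd7, and the other granulocyte genes called from 8 to 12, from 4 to 8 and from 3 to 5 at the 3 ages. Members called from Pd3 to Pd7 ran from 3, without F1-Control Pd3 replicate 1, to 10, without F1-Control Pd7 replicate 1, in F1-Control and from 0 to 2 in F1-HHcy. The differences between ages ran from 1 to 5 for Pd3 and Pd7, from 6 to 9 for Pd3 and Pd21 and from 2 to 6 for Pd7 and Pd21. A library left out of a group of 3 leaves 2.

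Libraries of the same replicate number did not deviate together (correlations of -0.34 to 0.087), so the values gave no sign of pairing by number. With groups of 3 libraries and no litters in the labels, this cannot exclude a pairing. With the replicate block 9 members were called from Pd3 to Pd7 in F1-Control and 3 in F1-HHcy, 9 at Pd3 and 4 at Pd7. Of 564 alternative values for single genes 520 kept their side of the threshold, 30 lost a call and 14 gained one, and 0 of the genes called changed direction. Of the members not called, S100a8 at Pd21 turned from 0.34 to -0.12 without F1-HHcy Pd21 replicate 2. Stefin counts depend on how shared reads were assigned, and levels near 3 fragments cannot be told from 0.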
